A study of Rattus norvegicus with 2 samples.

Results

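ZNF genes encode zinc finger proteins, and 185 circular RNAs (circRNAs) named for a single ZNF gene were found among the 17260 circRNAs considered. They were chosen by name alone, as circRNAs whose only host gene has a symbol made of ZNF and a number, and they came from 103 of 4986 host genes. A circRNA is a ring of RNA formed by back-splicing, in which the end of an exon is joined to the start of the same or an earlier exon, and it is counted by reads across that junction.

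The labels describe a rat model of bone cancer pain. In the bone cancer pain (BCP) group, live Walker256 cells, a rat carcinoma line, were injected into the tibia. The control group had the same surgery with Walker256 cells boiled for 20 minutes. Each group had 3 animals, killed 21 days after surgery, and no genetic change is given for either. There was 1 library per group. Whether the animals' RNA was pooled is not stated, so each value below compares 2 libraries and no test between conditions was possible. Total RNA of both groups was cleared of ribosomal RNA and treated with RNase R, which degrades linear RNA. The labels give the tissue as hydrostatic cancer cells, the line as Walker256 and the cell type as spinal cord cells, for both libraries.

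The BCP library held 151685 circular junction reads and the control library 159941. Of 8 neuronal markers none had a circRNA. Of 6 oligodendrocyte markers 1 had a circRNA (MBP, with 3 reads in the BCP library and 2 in the control library), and of 6 epithelial markers 1 (ERBB2, with 35 and 36 reads). Only circRNAs with 1 host name were looked at. A gene without a circRNA may still be expressed, so these counts do not tell which cells were present. Host names and positions are in human style, on a build the table does not name, and they go against the rat build rn6 of the submitters' processing notes. Human-style identifiers (hsa_circ) were given for 109 of the 185 ZNF circRNAs. Which organism the reads came from was not tested. The values below are those of the libraries so labelled. By name alone, 56 of the 103 ZNF hosts (54.4%, exact binomial 95% interval 44.3 to 64.2) had a rat gene called Zfp or Znf with the same number, and 7 of these were on the same chromosome number. Among hosts on chromosome 19 the share was 11 of 43 (25.6%, 13.5 to 41.2), and among hosts elsewhere 45 of 60 (interval 62.1% to 85.3%). Hosts with no such rat name included ZNF430, ZNF766, ZNF675, ZNF680 and ZNF254. A shared number does not show that a rat gene is the counterpart of the host.

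Zinc finger proteins of this family bind DNA or RNA through fingers in which cysteines and histidines hold a zinc ion. Many also carry a KRAB domain, which recruits the corepressor TRIM28 and with it the histone methyltransferase SETDB1, so that chromatin at the bound site is silenced. KRAB zinc finger genes lie in clusters, many of them on human chromosome 19, and are known for silencing transposable elements. Some ZNF genes are well-known circRNA hosts, with ZNF609 the best studied, in human myoblasts.

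Together the ZNF circRNAs took nearly the same share of both libraries. In bulk RNA, fewer cells of a type and less RNA per cell cannot be told apart. They had 1768 reads in the BCP library (1.17% of its reads, 11656 RPM, reads scaled to a library total of 1000000) and 1862 in the control library (1.16%, 11642 RPM). The ratio of bone cancer pain to control was 1.00, with an exact conditional binomial 95% interval of 0.94 to 1.07. Median of ratios scaling, which moves every log2 ratio by -0.08, put it at 0.95 (0.89 to 1.01). All intervals here cover counting error only. The reads were concentrated on few hosts. The 10 hosts with the most reads held 55.6% of ZNF circRNA reads in the BCP library and 56.1% in the control library. The median ZNF circRNA had 6 reads over both libraries, close to the 5 of all circRNAs.

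The most abundant was a circRNA of ZNF292 (hsa_circ_0004058, chromosome 6, 87925621 to 87928449), 80th of all circRNAs by reads. ZNF292 is a large zinc finger transcription factor, first described in rat as an activator of the growth hormone gene. The circRNA had 185 reads (1220 RPM) in the BCP library and 157 (982 RPM) in the control library, a ratio of 1.24 (1.00 to 1.55, with the lower bound just under 1). The circRNA of ZNF609, which works with the cohesin loader NIPBL and the Integrator complex (hsa_circ_0000615, chromosome 15, 64791492 to 64792365), had 166 reads (1094 RPM) and 150 (938 RPM), at 1.17 (0.93 to 1.47). Both were slightly higher in the BCP library, by less than 1.3-fold.

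The next 4 were lower in the BCP library. The main circRNA of ZNF236 (hsa_circ_0004979) had 63 reads (415 RPM) in the BCP library and 95 (594 RPM) in the control library, at 0.70 (0.50 to 0.97). That of ZNF652, a repressor that works with CBFA2T3 in human cells (hsa_circ_0003258), had 50 (330 RPM) and 84 (525 RPM), at 0.63 (0.43 to 0.90). The only circRNA of ZNF766, a KRAB gene (hsa_circ_0052095, chromosome 19, 52785364 to 52786666), had 41 and 68 reads, at 0.64 (0.42 to 0.95). For ZNF608, the close relative of ZNF609 (hsa_circ_0001523), the values were 46 and 63 (0.77, 0.51 to 1.14), an interval that includes 1.

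Among the other 6 of the 12 most abundant, levels were closer or of mixed direction. ZNF430, a KRAB gene, had 52 reads in the BCP library and 53 in the control library (1.03, 0.69 to 1.55). A circRNA of ZNF124, also a KRAB gene, was without an identifier of circBase, a database of known circRNAs, and had 63 and 41 reads (1.62, 1.08 to 2.46). ZNF148, a factor that binds GC-rich promoters, had 56 and 44 reads for its main form (hsa_circ_0001333; 1.34, 0.89 to 2.04). The others were the KRAB genes ZNF398 (46 and 41; 1.18, 0.76 to 1.85) and ZNF81 on chromosome X (37 and 51; 0.76, 0.49 to 1.19), and ZNF83 (32 and 54; 0.62, 0.39 to 0.99). None of the 12 reached 2-fold.

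**Figure D1:**
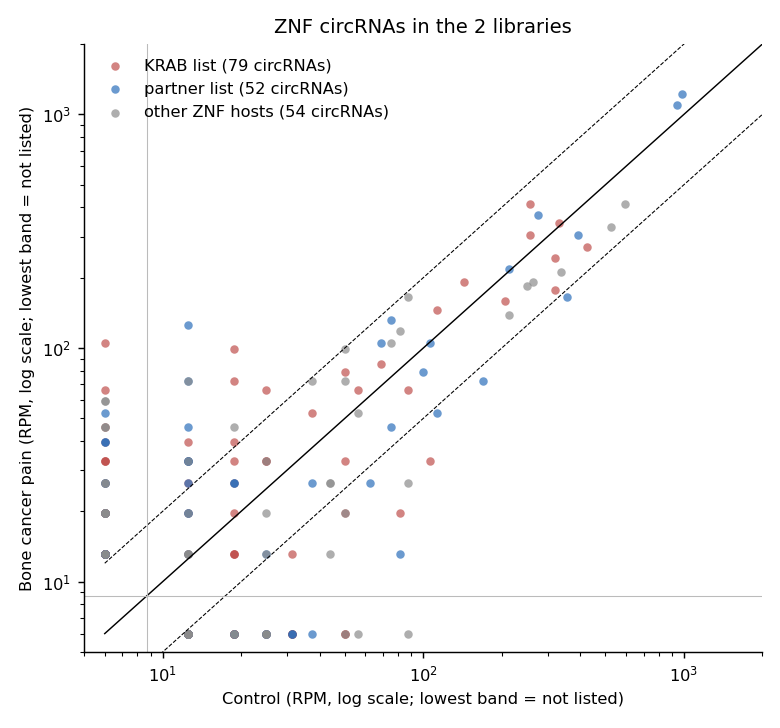
Each point is 1 of the 185 ZNF circRNAs, with its level in the BCP library (vertical axis) against the control library (horizontal axis), in RPM on log scales, coloured by class of host gene. The lowest bands hold the 44 circRNAs not listed in the BCP library and the 48 not listed in the control library; the solid line marks equal levels and the dashed lines 2-fold. The 12 circRNAs with the most reads lie between the dashed lines.

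Of the 185 ZNF circRNAs, 61 had 10 or more reads over both libraries. A circRNA was called higher or lower by size alone, at a ratio of 2 or more or of 0.5 or less with 0.5 reads added to each library. By this rule 9 of the 61 were higher in the BCP library (14.8%), where 17.3% of all 5415 circRNAs with 10 or more reads were. Another 11 were lower, against 17.0% of all, and 41 lay between. Both shares were near those of all circRNAs. The median log2 ratio was -0.01 for ZNF circRNAs and -0.004 for all. The counting interval left out 1 in 7 of the 9 called higher, and likewise in 7 of the 11 called lower. Over all 5415 circRNAs it left out 1 in 582 of the 936 called higher and in 553 of the 919 called lower.

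Of the 20 called, 15 had 10 to 19 reads over both libraries, where a change of a few reads makes 2-fold. In that class 8 of 25 ZNF circRNAs were higher and 7 were lower, where 578 and 577 of all 2336 were. With 20 to 49 reads, 1 of 16 ZNF circRNAs was higher and 3 were lower, where 264 and 264 of all 1879 circRNAs were. With 50 to 99 reads, 0 of 11 were higher and 1 was lower, where 66 and 53 of all 748 were. With 100 or more, 0 of 9 were called, where 11.7% of all 452 were. With 10 to 19 reads the share called, both directions together, was above that of all circRNAs (60% against 49.4%). In each class with 20 or more reads it was below. Together, 36 ZNF circRNAs had 20 or more reads, of which 1 was higher and 4 were lower. The higher was a second circRNA of ZNF292, without a circBase identifier (chromosome 6, 87925621 to 87943245), with 19 reads in the BCP library and 2 in the control library (10.02, 2.42 to 88.7). It shares its lower end with the abundant ZNF292 circRNA. The 4 lower ones were of ZNF484, a KRAB gene (hsa_circ_0007416, 5 and 17 reads; 0.31, 0.089 to 0.88), ZNF638, which silences unintegrated retroviral DNA in human cells (hsa_circ_0055151, 11 and 27; 0.43, 0.19 to 0.89), ZNF827, which recruits the NuRD complex to telomeres in human cells (hsa_circ_0003187, 25 and 57; 0.46, 0.28 to 0.75), and ZNF148 (hsa_circ_0067103, 8 and 18; 0.47, 0.18 to 1.13).

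Several others with 20 or more reads came close to these sizes. On the higher side in the BCP library were ZNF137P, a pseudogene by its symbol (15 reads there and 8 in the control library; 1.98, 0.79 to 5.38), ZNF841 (hsa_circ_0008749, 25 and 14; 1.88, 0.94 to 3.92) and a second form of ZNF827 (hsa_circ_0007606, 20 and 12; 1.76, 0.82 to 3.94). They were followed by the uncatalogued ZNF124 circRNA given above (1.62), whose interval excludes 1, and by ZNF431 (12 and 8), a second form of ZNF148 (hsa_circ_0006095, 16 and 11) and ZNF367 (18 and 13), these 3 with intervals that include 1. On the lower side was a second form of ZNF124 (hsa_circ_0017348, 27 and 51; 0.56, 0.34 to 0.91), followed by ZNF83, ZNF652 and ZNF766, given above.

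Listed in both libraries were 93 of the 185 ZNF circRNAs (50.3%), against 41.9% of all circRNAs. Another 48 were listed in the BCP library alone and 44 in the control library alone, each with a median of 3 reads. Since listing began at 2 reads, absence from a library does not show 0 reads there, and no ratio is given for these. With the most reads in the BCP library alone were circRNAs of ZNF254 (16 reads; chromosome 19, 24288742 to 24289445), ZNF586 (10), ZNF134 (9) and ZNF516 (hsa_circ_0008699, 9). In the control library alone they were circRNAs of ZNF236 (hsa_circ_0002799, 14), ZNF121 (hsa_circ_0006476, 9) and, with 8 reads each, ZNF85, ZNF567 and ZNF407.

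Summed over the circRNAs of each host, 10 ZNF genes had 100 or more reads. Among them, by circRNAs named for 1 gene, ZNF292 was highest relative to control. It had 204 reads (1345 RPM) in the BCP library and 161 (1007 RPM) in the control library (1.34, 1.08 to 1.65). With circRNAs of several names added, ZNF292 had 251 and 203 reads (1.30, 1.08 to 1.58), below ZNF124 at 1.37. ZNF652 had 79 and 126 reads (0.66, 0.49 to 0.88) and ZNF236 had 85 and 123 (0.73, 0.55 to 0.97), so that both were lower in the BCP library by less than 2-fold. By circRNAs named for 1 gene, intervals included 1 for ZNF609 (170 and 150; 1.20, 0.95 to 1.499), ZNF124 (125 and 124; 1.06, 0.82 to 1.37; 237 and 182 with hsa_circ_0002922, which carries a second name; 1.37, 1.13 to 1.67), ZNF148 (95 and 82; 1.22, 0.90 to 1.66), ZNF827 (75 and 87; 0.91, 0.66 to 1.25) and ZNF608 (57 and 71; 0.85, 0.59 to 1.22). ZNF766 and ZNF430 have 1 circRNA each, given above.

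Of the 55 ZNF hosts with 10 or more reads, 9 were 2-fold higher in the BCP library (16.4%), where 13.3% of all 3033 such hosts were. Lower were 8 (14.5%), against 14.2% of all hosts. These shares too were near the background. Among hosts with 20 or more reads, ZNF707, a KRAB gene on chromosome 8, was the highest, with 18 reads in the BCP library and 3 in the control library (6.33, 1.85 to 33.5). ZNF839 followed, with 32 and 16 reads (2.11, 1.12 to 4.12) over 3 circRNAs that share their lower end, then ZNF137P and ZNF841 (27 and 16; 1.78, 0.92 to 3.54). The call of ZNF839 rests on the scaling: under median of ratios scaling its log2 ratio was 0.98.

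The lowest hosts relative to control were ZNF484, with the 5 and 17 reads given above, and ZNF420, a KRAB gene, with 5 reads in the BCP library and 16 in the control library (0.33, 0.094 to 0.94). ZNF277 had 8 and 23 reads (0.37, 0.14 to 0.85) and ZNF638 had 17 and 45 (0.40, 0.21 to 0.71). ZNF638 had 5 circRNAs, and both of its forms with the most reads were lower, the second at 2 and 13 reads (chromosome 2, 71651780 to 71653904; 0.16, 0.018 to 0.72). ZNF346, a protein that binds double-stranded RNA (9 and 19; 0.50, 0.20 to 1.16), and ZNF131 (7 and 14; 0.53, 0.18 to 1.40) came next, with intervals that include 1. ZNF346 passed 2-fold under median of ratios scaling, at a log2 ratio of -1.04.

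**Figure D2:**
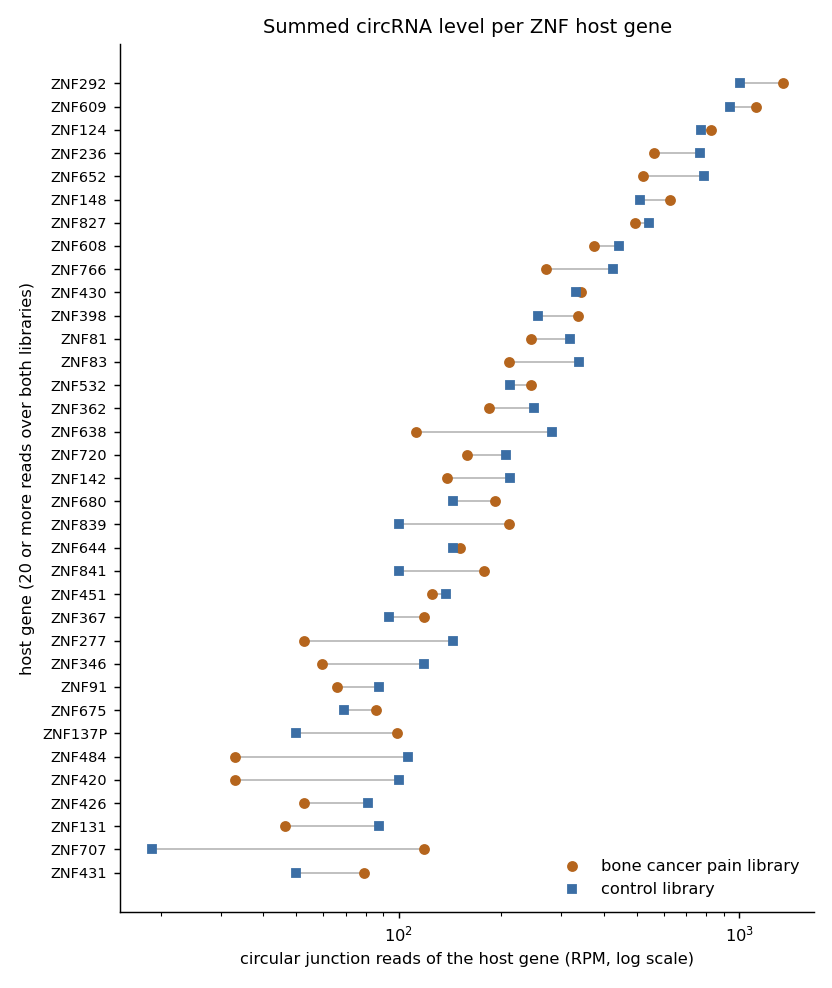
Summed circular junction reads of each ZNF host gene with 20 or more reads over both libraries, in RPM on a log axis, with circles for the BCP library and squares for the control library. The 35 hosts are ordered by reads. The widest gaps are at ZNF707, higher in the BCP library, and at ZNF484, ZNF420, ZNF277 and ZNF638, lower in it.

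By class of host, 58 of the 103 genes, with 79 circRNAs, were on a hand-written list of 312 genes taken to encode KRAB zinc finger proteins. Their circRNAs summed to 597 reads in the BCP library and 595 in the control library (1.06, 0.94 to 1.19). Among the 23 with 10 or more reads, 5 were called higher (21.7%), 3 lower (13.0%) and 15 neither, against 17.3% and 17.0% of all circRNAs. The median log2 ratio was 0.24. The other 45 hosts had 106 circRNAs, with 1171 and 1267 reads (0.97, 0.90 to 1.06). Of the 38 with 10 or more reads, 4 were called higher (10.5%), 8 lower (21.1%) and 26 neither, with a median of -0.35. The summed ratios of the classes had overlapping intervals. ZNF3, ZNF426 and ZNF841 also carry the domain but were not on the list; with them moved to it the ratios were 1.07 (0.96 to 1.20) and 0.96 (0.89 to 1.05). KRAB hosts with 5-fold or larger ratios were ZNF79 (hsa_circ_0006984, 15 and 3 reads; 5.27, 1.49 to 28.4), ZNF175 (12 and 2; 6.33, 1.41 to 58.2) and ZNF707; the first and the second were named after their values were seen.

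A second list held 29 ZNF genes without a KRAB domain whose partners or roles are known, and 15 of them had circRNAs. These 15 hosts had 52 circRNAs, with 727 reads in the BCP library and 719 in the control library (1.07, 0.96 to 1.18). Of the 12 hosts with 10 or more reads none was 2-fold higher, and 1, ZNF638, was lower, against 13.3% and 14.2% of all hosts. By circRNA, 2 of 18 with 10 or more reads were higher (11.1%) and 5 lower (27.8%), against 17.3% and 17.0% of all circRNAs. ZNF532, a partner of ZMYND8 in chromatin, had 37 and 34 reads (1.15, 0.70 to 1.88). ZNF644, which binds the histone methyltransferases G9a and GLP, had 23 and 23 (1.05, 0.57 to 1.97). ZNF451, an enzyme of SUMO attachment, had 19 and 22 (0.91, 0.47 to 1.76). The other 30 hosts, on neither list, summed to 444 and 548 reads (0.85, 0.75 to 0.97). Without ZNF236, the host with the most reads among them, that ratio was 0.89 (0.77 to 1.03), an interval that includes 1. The lists were not complete. These 30 hosts included ZNF652, whose partner is given above, and the KRAB genes ZNF3, ZNF426 and ZNF841.

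ZNF circRNAs lay on 20 chromosomes, with none on 12, 13 or 21. Chromosome 19 held 55 of them (29.7%, exact binomial interval 23.2 to 36.9), against 3.53% of all circRNAs, and 43 of the 103 hosts. Chromosome 18 came next with 19 (10.3%, 6.30 to 15.6; 2.18% of all), from only 5 hosts, ZNF236, ZNF407, ZNF516, ZNF521 and ZNF532. Of the circRNAs of chromosome 19, 9.03% were of ZNF hosts. By reads the share of chromosome 19 was smaller, at 19.1%. Its ZNF circRNAs had 340 reads in the BCP library and 353 in the control library (1.02, 0.87 to 1.18).

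**Figure D3:**
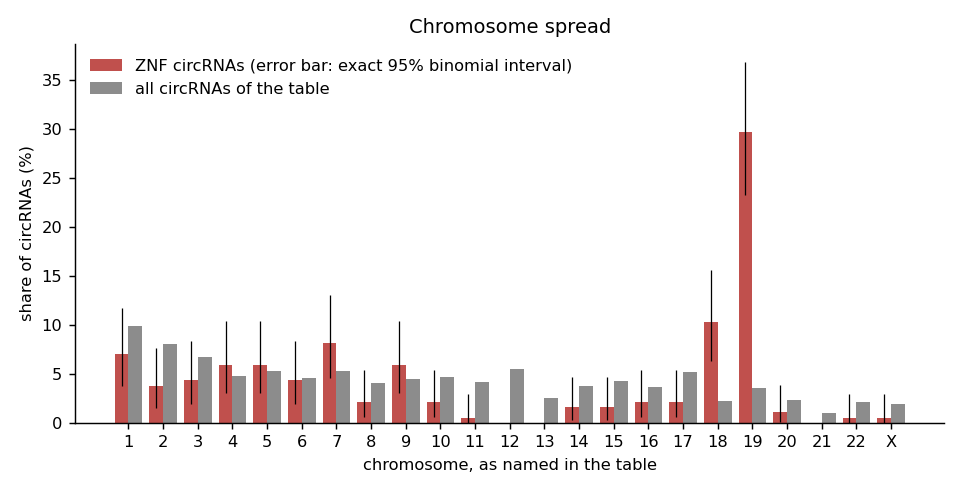
Share of ZNF circRNAs (red, with exact 95% binomial intervals) and of all circRNAs of the table (grey) on each chromosome as the table names it, in percent. Chromosome 19 stands out at 29.7% of ZNF circRNAs, followed by chromosome 18 at 10.3%.

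With gaps over 1000000 bp as borders, the ZNF circRNAs of chromosome 19 fell into 10 stretches, 8 of them with several hosts. The stretch with the most circRNAs ran from 52076403 to 54080107 and held 15 circRNAs of 12 hosts, among them ZNF766, ZNF83, ZNF841 and ZNF175. It had 141 reads in the BCP library and 165 in the control library (0.90, 0.71 to 1.14). The stretch from 20026089 to 21350469 held 1 circRNA of each of 6 KRAB genes, ZNF430, ZNF431, ZNF714, ZNF85, ZNF90 and ZNF93, with 72 and 79 reads (0.96, 0.69 to 1.34). Neither differed between the libraries beyond counting error.

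Other stretches of chromosome 19 differed in size and direction on few reads. The largest ratio was from 11759173 to 12735524, for ZNF625-ZNF20, ZNF791, ZNF823 and ZNF833P. Their circRNAs had 14 reads in the BCP library and 4 in the control library (3.69, 1.16 to 15.4). Intervals included 1 from 9643521 to 9771550 (16 and 27 reads) and from 56657616 to 56925809 (3 and 6). From 58130780 to 58377836, the circRNAs of ZNF134, ZNF586, ZNF587 and ZNF814 had 30 reads in the BCP library and 9 in the control library (3.51, 1.63 to 8.42). ZNF586, with 17 reads over 2 circRNAs, and ZNF134, with 9, were listed in the BCP library alone. From 37203288 to 37917280, those of ZNF420, ZNF567, ZNF568, ZNF569 and ZNF585B, all KRAB genes, had 14 and 36 (0.41, 0.20 to 0.78). From 23316882 to 24289445, those of ZNF91, ZNF254, ZNF675, ZNF726 and ZNF730 had 44 and 27 (1.72, 1.04 to 2.89), of which the circRNA of ZNF254 gave 16 and none. ZNF91, known for restraining SVA retroelements in human cells, had 10 and 14 reads. Genes of these clusters resemble each other, so reads may have been split between near-identical copies by the authors' counting, and values of single hosts there are uncertain.

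The span between the back-splice ends, taken as end minus start plus 1, had a median of 2884 bp (quartiles 1045 and 9811), against 5765 bp (1738.5 and 15397) for all circRNAs. It differed by class of host, at 1303 bp for KRAB hosts, 8872.5 bp for the hosts with known partners and 3594.5 bp for the others. Spans of 1000 bp or less made up 26 of the 79 circRNAs of KRAB hosts (32.9%) and 3 of the 52 of the hosts with known partners (5.77%), against 16.6% of all circRNAs. Among those with 10 or more reads the median was 1534 bp for ZNF circRNAs and 5150 bp for all. Many of the abundant ZNF circRNAs were short, with spans of 874 bp for ZNF609, 731 bp for ZNF652, 729 bp for ZNF430, 396 bp for ZNF398 and 256 bp for ZNF608.

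The shortest spans were 140 bp (ZNF845, 3 reads, control library alone), 146 bp (ZNF518B, 4 reads, BCP library alone) and 202 bp (ZNF277, hsa_circ_0001739, with 4 and 14 reads). The longest were 108611 bp (ZNF407, hsa_circ_0047961, 2 reads in the control library alone), 75494 bp (ZNF438, 5 and 4 reads) and 71402 bp (ZNF365, hsa_circ_0018457, 4 and 7). All 3 longest had few reads. An exception among abundant ones was ZNF81, whose only circRNA spans 49836 bp.

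**Figure D4:**
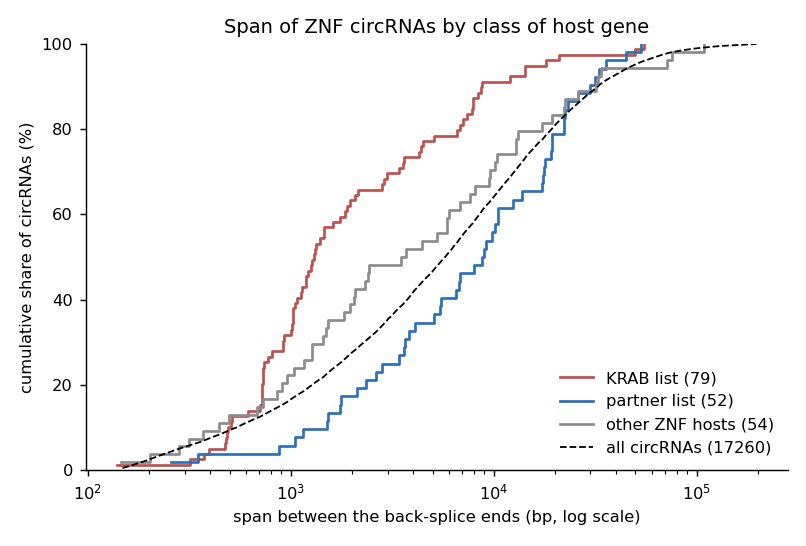
Cumulative share of circRNAs (vertical axis, in percent) by span between the back-splice ends (horizontal axis, in bp on a log scale), for ZNF hosts on the KRAB list, on the partner list and on neither, and for all circRNAs of the table (dashed). The curve of the 79 circRNAs of KRAB hosts lies to the left, with a median of 1303 bp, and that of the 52 of partner-list hosts to the right, with a median of 8872.5 bp.

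A circBase identifier was given for 109 of the 185 ZNF circRNAs (58.9%, 51.5 to 66.1), against 54.0% of all circRNAs. The share on chromosome 19 was 20 of 55 (36.4%, 23.8 to 50.4), lower than elsewhere (89 of 130, 68.5%, 59.7 to 76.3). For KRAB hosts it was 39 of 79 (49.4%, 37.9 to 60.9) and for the other hosts 70 of 106 (66.0%, 56.2 to 74.96), with overlapping intervals. By reads the catalogued circRNAs held 81.1% of the ZNF reads in the BCP library and 87.0% in the control library, near the 79.9% and 82.4% of all circRNAs.

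The uncatalogued ZNF circRNAs were higher in the BCP library. They had 334 reads there and 242 in the control library (1.46, 1.23 to 1.72), while uncatalogued circRNAs of the whole table stood at 1.14 (1.12 to 1.16). The catalogued ones had 1434 and 1620 (0.93, 0.87 to 1.00), against 0.97 (0.96 to 0.98) for the whole table. The largest excesses came from the circRNAs of ZNF124 (63 and 41), ZNF292 (19 and 2) and ZNF254 (16 and none) given above. Without these 3 the ratio was 1.25 (1.03 to 1.52). This split was looked at after the values were seen.

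ZNF hosts had fewer circRNAs each than hosts in general. A single circRNA was listed for 64 of the 103 (62.1%), against 41.0% of all hosts, and the mean was 1.796 circRNAs per ZNF host and 3.03 over all hosts. KRAB hosts averaged 1.36 and the hosts with known partners 3.47. The hosts with the most were ZNF236 with 9, ZNF148 and ZNF827 with 7 each, and ZNF124 and ZNF638 with 5 each. Of the 121 circRNAs from hosts with several, 91 (75.2%) shared a back-splice end with another of the same host, close to the 71.3% over all hosts. In ZNF124 all 5 forms ended at 247323115 of chromosome 1, and in ZNF236 5 of 9 started at 74561482 of chromosome 18.

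Forms of the same gene differed in direction between the libraries. Among the circRNAs named for ZNF124 alone, the form with a span of 3408 bp made up 50.4% of reads in the BCP library (63 of 125) and 33.1% in the control library (41 of 124). The form of 808 bp made up 21.6% (14.7 to 29.8) and 41.1% (32.4 to 50.3). The intervals of the 808 bp form do not overlap, while the forms of 21098 and 2814 bp differed little (22 and 18 reads, and 10 and 14). A sixth circRNA with the same end, hsa_circ_0002922, is named for Y_RNA as well and so was not among the 185, and it had more reads than either, with 112 in the BCP library and 58 in the control library. With it in the total (237 and 182 reads), the share of the 3408 bp form was 26.6% (21.1 to 32.7) in the BCP library and 22.5% (16.7 to 29.3) in the control library, so that the difference above does not hold for it. That of the 808 bp form was 11.4% (7.64 to 16.1) and 28.0% (21.6 to 35.1), again without overlap.

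ZNF827 was the only ZNF host of 8 with at least 2 circRNAs of 10 or more reads to have a form called higher and another called lower (12.5%; 11.8% of 1115 such hosts in all). Its form of 3606 bp made up 33.3% of reads in the BCP library (22.9 to 45.2) and 65.5% in the control library (54.6 to 75.4). Both forms that end at 146770713 of chromosome 4 had 29 and 67 reads together, both that end at 146813567 had 31 and 14, and the 3 that end at 146824367 had 15 and 6. The form hsa_circ_0007902 alone had 11 and 2 reads (5.80, 1.27 to 53.8). Forms that end at the higher coordinates thus took more of the reads in the BCP library.

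In ZNF148 the form of 349 bp, hsa_circ_0067103, made up 8.42% of reads in the BCP library (3.71 to 15.9) and 21.95% in the control library (13.6 to 32.5). In ZNF236, hsa_circ_0002799 was not listed in the BCP library and had 14 reads in the control library, where it made up 11.4% (6.36 to 18.4), while hsa_circ_0000857 had 11 and 6. Both start at the same position as the main form of ZNF236. In ZNF292 the uncatalogued form made up 9.31% in the BCP library (5.70 to 14.2) and 1.24% in the control library (0.15 to 4.42). With circRNAs of several names added, these were 7.57% (4.62 to 11.6) and 0.99% (0.12 to 3.51). By circRNAs named for 1 gene, shares of the main forms of ZNF292, ZNF609, ZNF608 and ZNF652 stayed between 63.3% and 100% in both libraries.

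**Figure D5:**
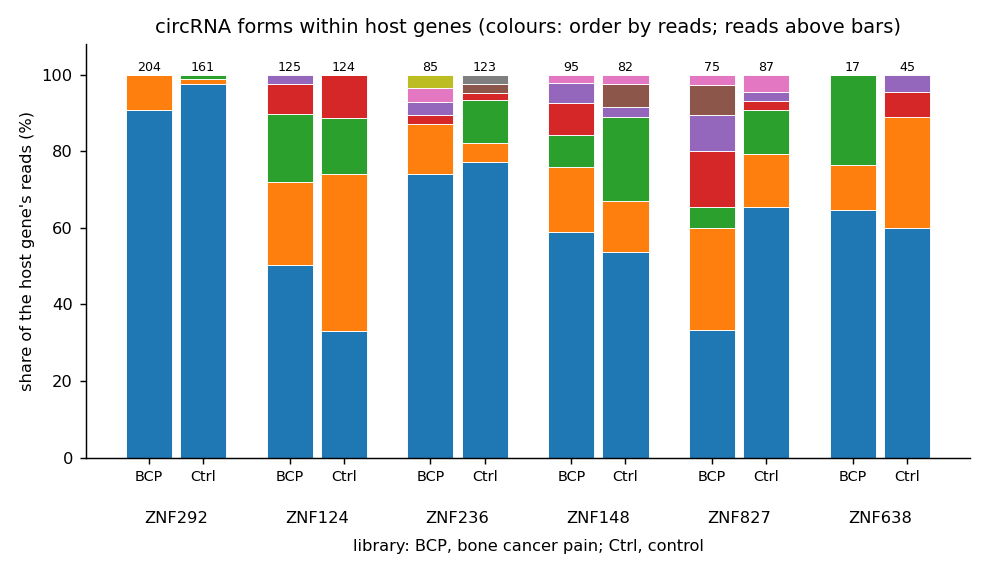
Share of each host gene's circular junction reads (vertical axis, in percent) held by its circRNA forms (those named for that gene alone), for ZNF292, ZNF124, ZNF236, ZNF148, ZNF827 and ZNF638, with the BCP library left of the control library (Ctrl) for each gene. Colours run in order of reads within a gene and the number above each bar is the reads it rests on; the first form of ZNF827 takes 33.3% in the BCP library and 65.5% in the control library.

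Genes that act with KRAB zinc finger proteins or in heterochromatin were described by circRNA reads from a list of 36, of which 23 had circRNAs and 16 had 10 or more reads. Of these 16, 5 (SETDB1, ATRX, ATF7IP, DNMT3A and HDAC1) were 2-fold higher in the BCP library, and 1 (RBBP7, with 3 and 12 reads) was lower; these shares were 31.2% and 6.25%, against 13.3% and 14.2% of all hosts. DNMT3A, HDAC1, SETDB1 and RBBP7 were named after their values were seen. By circRNA, 7 of 30 with 10 or more reads were higher (23.3%) and 4 lower (13.3%), against 17.3% and 17.0% of all circRNAs. The median log2 ratio of the hosts was 0.11 (-0.03 over all hosts). SETDB1 itself had 12 reads in the BCP library and 2 in the control library (6.33, 1.41 to 58.2), while TRIM28 had no circRNA. Highest with 20 or more reads were the chromatin remodeller ATRX (27 and 10; 2.85, 1.34 to 6.59) and ATF7IP, the partner of SETDB1 (24 and 9; 2.81, 1.26 to 6.87). Lowest were SUV420H1, a histone H4 methyltransferase (7 and 13; 0.57, 0.19 to 1.53), and UHRF1, which reads hemimethylated DNA (25 and 44; 0.60, 0.35 to 1.00). The list summed to 461 and 434 reads (1.12, 0.98 to 1.28).

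Zinc finger transcription factors under other names, such as the ZBTB, PRDM and GLI families, had 95 circRNAs of 38 hosts. The pattern of symbols also took in ZBTB8OS, which is no zinc finger gene and had 5 control reads. Among 22 hosts with 10 or more reads, 2 were 2-fold higher in the BCP library and 1 lower (SP1, 2 and 8 reads, named after its values were seen), against 13.3% and 14.2% of all hosts. These list shares were 9.09% and 4.55%. The median log2 ratio was 0.55, against -0.03 over all hosts. RREB1, which binds RAS-responsive elements, had 48 reads in the BCP library and 19 in the control library (2.66, 1.54 to 4.80), and CTCF, which shapes chromatin loops, had 88 and 42 (2.21, 1.51 to 3.27). Among hosts with 20 or more reads MAZ and KLF7 were lowest, with 10 and 17 reads each (0.62, 0.25 to 1.43). The list summed to 1028 and 960 reads (1.13, 1.03 to 1.23), against 1.00 (0.94 to 1.07) for the ZNF circRNAs, and these intervals overlap. Under median of ratios scaling the interval of the list included 1 (1.07, 0.98 to 1.17).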

How the data were processed

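The authors deposited 1 table with 1 column per group, headed TPM per the file headers. The deposited values were treated as RPM, since both columns sum to about 1000000 and all values above the placeholder of 0.001 (100% in both libraries) came out as whole reads, within 0.001 reads, when divided by what 1 read is worth in that library, whatever the length. The placeholder was taken as 0. CASAVA 1.8, BWA and the build rn6 are named, without roles, per the submitters' processing notes; the circRNA caller is not given in the sources used here. No replicates exist, so calls are by size (ratio of 2 or 0.5, 0.5 reads added, 10 or more reads). Totals for scaling hold all circRNAs; 1 on chromosome Y was then left out. Host sums used circRNAs with 1 host name.

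Ratios compare shares of library totals, with exact conditional binomial (Clopper-Pearson) intervals; shares have exact binomial intervals. Named were the most abundant, highest and lowest circRNAs and hosts with 20 or more reads, the most abundant listed in 1 library, the longest, the shortest and members of the lists. Members and lists were chosen with earlier results of these data known, and support nothing by themselves. Other settings were median of ratios and TMM scaling (trimming 30% of ratios and 5% of abundances), read minimums of 5, 20 and none, 2 reads added, a ratio of 1.5, intervals excluding 1, circBase identifiers only, and circRNAs listed in both libraries only. Rat names came from RefSeq (GRCr8). No sequence is printed, since no genome of the table's build was used here. Software was scipy 1.17.1, numpy 2.4.6 and pandas 2.3.3 under Python 3.11.15, with figures by matplotlib 3.10.9.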

Additional observations from a re-analysis of the deposited data

Results flagged for a closer look

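Outside the comparisons above, 34 circRNAs carried several names of which at least 1 was a ZNF gene, often beside a small RNA name such as Y_RNA. Bone cancer pain (BCP) gave them 270 reads and the control 196 (ratio 1.45, 1.20 to 1.75). For 2 of them with 20 or more reads, the level in the BCP library was above that in the control library by more than counting error. The circRNA hsa_circ_0002922, named for ZNF124 and Y_RNA (chromosome 1, 247318868 to 247323115), had 112 and 58 reads (2.04, 1.47 to 2.85). It ends where the 5 other ZNF124 forms end, and with it ZNF124 summed to 237 and 182 reads (1.37, 1.13 to 1.67) in place of 125 and 124. The circRNA hsa_circ_0001726, named for ZNF789 and ZNF394 among others (chromosome 7, 99090663 to 99092254), had 46 and 15 reads (3.23, 1.77 to 6.24). With all 34 added, the ZNF circRNAs summed to a ratio of 1.04 (0.98 to 1.11).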

How the results depend on the processing

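Counts of ZNF circRNAs called 2-fold higher and lower in the BCP library (9 and 11 of 61) depended on the read minimum. They were 28 and 23 of 113 tested with 5 reads, 1 and 4 of 36 with 20, and 62 and 56 of 185 with none. At a ratio of 1.5 they were 16 and 19 of 61, and with 2 reads added 7 of 61 were lower. With circBase identifiers only, 4 of 47 were higher (8.51%, against 15.4% of all such circRNAs). With an interval excluding 1, 7 of 61 were lower, against 553 of all 5415 circRNAs. Counts of hosts (9 and 8 of 55) were 15 and 14 of 76 with 5 reads, 2 and 4 of 35 with 20, and 28 and 27 of 103 with none. They were 3 and 5 of 39 with circBase identifiers only, and 5 and 5 of 46 with circRNAs listed in both libraries. At a ratio of 1.5 they were 14 and 16 of 55. With an interval excluding 1, 5 of 55 hosts were lower, against 287 of all 3033 hosts. Values over all circRNAs with 20 or more reads are given above by class of reads. Elsewhere, where no count or share over all circRNAs or hosts is given here, it was not computed. The summed ratio of ZNF circRNAs was 0.93 with circBase identifiers only. The share on chromosome 19 was 41.7% by host, 19.1% by reads and 18.3% with circBase identifiers only. The catalogued share was 77.0% with 10 or more reads and 84.1% by reads, and the median span 1534 bp with 10 or more reads. The cause was not tested. Scaling by median of ratios shifts all log2 ratios by -0.08 and TMM by 0.002. The ratio of ZNF circRNAs under them was 0.95 and 1.00, within its interval, and the median log2 ratio was -0.08 and -0.01, while with 5 reads it was 0.31. With 2 reads added 0 circRNAs or hosts turned their direction, while 5 circRNAs and 3 hosts were no longer called. Under median of ratios scaling the host ZNF839 was no longer called and ZNF346 was. No paired analysis was possible because each group had 1 library, and no replicate could be left out. Depth limits single circRNAs with few reads.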
